A study of Mus musculus with 53 samples.

Results

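The imprinted growth genes H19, Dlk1, Meg3 (also named Gtl2), Peg3, Plagl1, Mest, Cdkn1c, Grb10 and Ndn were followed over 5 groups of mouse liver and thymic tissue on Illumina bead arrays. A gene was taken by its symbol in the array's annotation, and where it had several probes the probe with the highest mean signal over all arrays stood for it. Of the 9 genes, 8 had a probe, through 20 probes in all, among 19057 genes on the array. H19, the maternally expressed noncoding RNA next to Igf2, had no probe under its symbol in the annotation used and was not analysed here.

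Imprinted genes are transcribed mainly from a single parental allele, chosen by DNA methylation laid down in the egg or sperm, and many of them set the growth of the fetus and placenta. Paternally expressed members such as Dlk1, Peg3 and Mest tend to favour growth, whereas maternally expressed members such as Cdkn1c and Grb10 tend to restrain it. In the liver several of them are active in the fetus and are turned down after birth.

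Liver tumors came from mice in which Cre under the albumin promoter, active in hepatocytes, acts on floxed alleles of the spindle checkpoint gene Mad2l1. In 1 group both Trp53 alleles were floxed as well (Mad2f/f p53f/f Alb-Cre+, 21 tumors of 16 mice) and in the other a single Trp53 allele was (Mad2f/f p53f/+ Alb-Cre+, 8 tumors of 5 mice). T-cell acute lymphoblastic lymphomas (T-ALL, n = 9) came from Mad2f/f p53f/f Lck-Cre+ mice, in which Cre acts in developing T cells. The controls were wild type livers (n = 10) and thymuses (n = 5), which carried neither floxed alleles nor Cre, and all mice were of the mixed B6-129Sv strain. Ages are not given in the sources used here, and 8 mice gave 2 liver tumors each. The arrays read whole tissue, so that a change in the share of a cell type and a change in RNA per cell cannot be told apart.

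Signals were available for 52 arrays, while p53 f/f tumor 12 had only the authors' normalized values. Levels below are log2 values after background correction and quantile normalization within the liver arrays or within the thymic arrays, on which an empty probe lies near 5. A probe was called detected on an array when its detection p lay under 0.05, and between 28.3% and 40.3% of probes were detected on every array but T-ALL 5, where 4.56% were. T-ALL 5 was close to blank, T-ALL 4 (30.2%) and p53 f/+ tumor 13 (28.3%) were dim, and results that these arrays or healthy liver 1 alter are given with and without them. Mad2l1, the targeted gene, fell by 4.29 ± 0.31 (SE) on the log2 scale in T-ALLs against thymuses (limma, adjusted p = 3.51e-08). In p53 f/f liver tumors it was 1.08 ± 0.29 higher than in healthy livers (adjusted p = 0.00421), so in whole liver tissue it gave no check of the deletion. Hepatocyte markers were high in all 3 liver groups, with a summed log2 level of 14.51 to 16.66. T cell markers were high on the thymic arrays, at 14.58 or more, except T-ALL 5 at 8.5.

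The 8 measured genes split into 5 that were read well enough to test and 3 that were near background on almost every array. Dlk1, Peg3, Cdkn1c, Grb10 and Ndn were detected on at least 5 arrays of each tissue and entered the fits over 11517 genes in liver and 10275 in thymus. Meg3, the maternally expressed noncoding RNA that shares its imprinted domain on chromosome 12 with Dlk1, was detected on 1 array, p53 f/+ tumor 14, at a level of 6.0. Plagl1, a zinc finger transcription factor, was also detected on 1 array, p53 f/+ tumor 13, at 6.06. Mest, which encodes a hydrolase-like protein, was detected in p53 f/+ tumor 18 at 5.54 and on the nearly blank array of T-ALL 5. For these 3 genes no difference between groups was detectable at this signal.

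**Figure D1:**
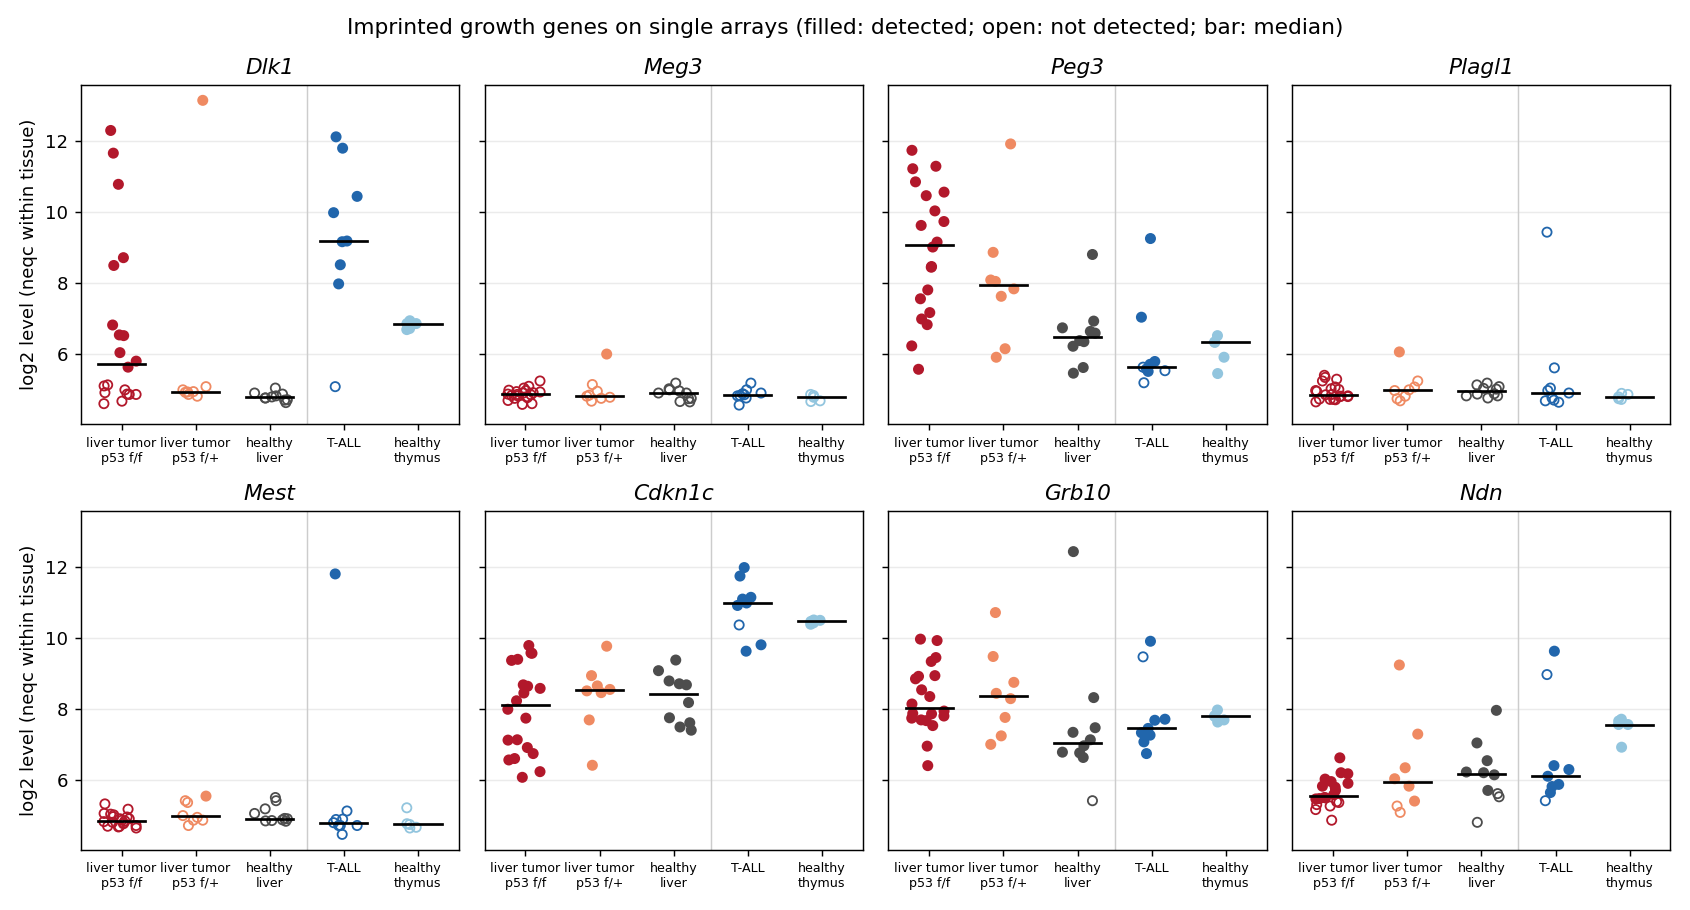
Log2 level (vertical axis) of each measured gene on every array, 1 point an array, by group. Filled points were detected and open points were not, and Dlk1 ran from background to above 12 in liver tumors and from 7.98 to 12.13 in T-ALLs other than the nearly blank T-ALL 5, while its values in each healthy tissue lay close together.

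Dlk1, a transmembrane relative of the Notch ligands that marks hepatoblasts of the fetal liver, was detected in no healthy liver and in a part of the tumors, some of which reached very high levels. Its start region and that of Meg3 are shown because the 2 genes share an imprinted domain and yet were read so differently. The sequences are those of RefSeq on GRCm38.p6, from 250 bases before to 50 bases after the gene's most upstream start, 5′ to 3′ on the gene's strand, with every CpG, the dinucleotide whose cytosine is methylated at imprinted regions, in capitals. The Dlk1 window lies at chr12:109452573-109452872 (+ strand) and the Meg3 window at chr12:109540746-109541045 (+ strand).
Dlk1: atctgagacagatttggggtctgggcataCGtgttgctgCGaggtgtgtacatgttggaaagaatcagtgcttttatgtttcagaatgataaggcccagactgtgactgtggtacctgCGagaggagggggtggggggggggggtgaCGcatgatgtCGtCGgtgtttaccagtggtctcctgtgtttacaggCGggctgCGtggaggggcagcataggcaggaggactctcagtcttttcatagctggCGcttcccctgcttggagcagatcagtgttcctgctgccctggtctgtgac
Meg3: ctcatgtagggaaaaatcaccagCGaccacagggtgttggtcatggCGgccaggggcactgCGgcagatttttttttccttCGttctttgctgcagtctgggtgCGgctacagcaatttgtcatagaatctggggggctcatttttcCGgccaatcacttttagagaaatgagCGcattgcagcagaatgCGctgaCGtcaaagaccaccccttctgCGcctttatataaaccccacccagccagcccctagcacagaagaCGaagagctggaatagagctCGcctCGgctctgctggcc
The Dlk1 window held 9 CpGs and the Meg3 window 13, against a median of 7 over 32851 windows of the same length. At least as many were found in 45.8% and 37.9% of those windows, so neither stood apart by CpG number. The arrays measured no methylation.

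In the 10 healthy livers Dlk1 lay between 4.63 and 5.04 (median 4.78) and was detected on none of them. In p53 f/f tumors it ran from 4.60 through a median of 5.72 to 12.31 and was detected in 11 of 20. In p53 f/+ tumors it ran from 4.81 through a median of 4.94 to 13.16 and was detected in 1 of 8. The groups thus overlapped at the bottom, while 13 of 20 p53 f/f tumors, from 13 mice, and 2 of 8 p53 f/+ tumors lay above the highest healthy liver. That healthy level was itself at background, and some tumors counted above it were not detected either. These were p53 f/f tumors 7 (5.13) and 11 (5.10) and p53 f/+ tumor 18 (5.08).

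The 4 tumors with the most Dlk1 stood far above all others. p53 f/+ tumor 14 read 13.16, p53 f/f tumor 8 read 12.31, tumor 21 read 11.67 and tumor 27 read 10.79. Because Dlk1 was not above background in any healthy liver, folds are lower bounds, set against the mean, over the healthy arrays, of the lowest signal that was still detected. By that bound Dlk1 was at least 186-fold, 103-fold, 66.4-fold and 36.1-fold higher in these tumors than in healthy liver. Tumors 1 and 3 followed at 8.72 and 8.50, at least 8.60-fold and 7.41-fold higher. In the remaining tumors it was below 7, with tumor 26 highest among them at 6.82.

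Averaged over the group, the p53 f/f tumors were at least 2.07-fold and the p53 f/+ tumors at least 1.27-fold above healthy liver. The p53 f/+ bound rested on tumor 14, since Dlk1 was detected in none of the other 7. The fitted log2 difference was 1.89 ± 0.85 (SE, 95% interval 0.16 to 3.61) for p53 f/f, which did not pass the test over all genes (limma with Benjamini-Hochberg adjustment, adjusted p = 0.0925). For p53 f/+ it was 1.12 ± 1.07 (adjusted p = 0.531), or 0.14 without tumors 14 and 15 (adjusted p = 0.947), and the 2 tumor groups differed by 0.77 ± 0.96 (adjusted p = 0.775). The second Dlk1 probe gave 1.33 ± 0.73 for p53 f/f over healthy liver (adjusted p = 0.178). When the tumors of a mouse were averaged first, the difference of 1.94 passed the test (adjusted p = 0.0291), and it passed without p53 f/+ tumors 14 and 15 as well (1.88, adjusted p = 0.042). Dlk1 entered the liver fits through tumors alone, since no healthy liver detected it.

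Peg3, a paternally expressed zinc finger protein, was the only one of the 5 tested genes that passed the test in p53 f/f liver tumors with quantile normalization and the mouse as a random block. Its start region, at chr7:6730370-6730669 on the − strand, is shown in the same way because this gene carries the main liver difference.
Peg3: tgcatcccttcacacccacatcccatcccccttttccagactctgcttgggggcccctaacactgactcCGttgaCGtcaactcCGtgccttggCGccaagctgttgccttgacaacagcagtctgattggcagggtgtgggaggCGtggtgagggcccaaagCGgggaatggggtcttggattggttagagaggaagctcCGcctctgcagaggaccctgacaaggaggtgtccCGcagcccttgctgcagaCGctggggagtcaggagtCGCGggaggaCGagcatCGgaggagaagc
It held 13 CpGs, with at least as many in 37.9% of windows. Unlike Dlk1, Peg3 was detected on all 38 liver arrays.

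Healthy livers ran from 5.46 through a median of 6.48 to 8.81, where healthy liver 5 was the high one and the next read 6.93. The p53 f/f tumors ran from 5.57 through 9.09 to 11.75, and the p53 f/+ tumors from 5.91 through 7.94 to 11.93. Of the p53 f/f tumors, 11 of 20, from 8 mice, lay above every healthy liver, led by tumor 11 (11.75), tumor 22 (11.3) and tumor 9 (11.23). The lowest were tumor 8 (5.57), among the highest for Dlk1, and tumor 24 (6.23). Among p53 f/+ tumors, tumor 14 (11.93) and tumor 29 (8.87) exceeded the healthy range.

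Peg3 was 2.34 ± 0.62 (SE) higher on the log2 scale in p53 f/f tumors than in healthy liver, or 5.08-fold (95% interval 1.09 to 3.6 on the log2 scale, adjusted p = 0.00415). In that comparison 14.9% of all tested genes rose and 14.2% fell, 29.1% in all, so 1 of 5 genes is close to the background. Some markers of other cells moved in the same comparison. Of the tested markers, 1 of 3 for bile duct, 1 of 5 for macrophages and 2 of 5 for neutrophils rose. In these lists 0 fell, and the median differences were -0.05, 0.17 and 1.18. Of 8 endothelial markers 1 rose (Emcn, 1.79) and 1 fell (Stab2, -1.15), with a median of 0.4. The bile duct marker Sox9 rose by 2.85, the macrophage marker Cd14 by 4.14 and the neutrophil markers S100a8 and S100a9 by 2.82 and 2.74 (adjusted p of 0.000136 or less). The summed bile duct level was 11.01 to 13 (median 12.16) in p53 f/f tumors and 8.41 to 12.25 (median 9.13) in healthy livers, and the part of these cells in the Peg3 difference was not tested. A second Peg3 probe was detected in 13 of 20 p53 f/f tumors, 3 of 8 p53 f/+ tumors and 0 of 10 healthy livers (means 6.42, 5.66 and 4.68). It entered the fit through tumors alone and lay at background in healthy liver, so its test adds no separate support. Among the arrays fitted, no chip held both p53 f/f tumors and healthy livers, since tumor 12, which shared a chip with healthy liver 10, had no signals. With chip as a fixed term, which left 2 calls among all genes, the difference of 2.05 ± 1.95 did not pass (adjusted p = 0.94). For p53 f/+ tumors the difference was 1.48 ± 0.78 (95% interval -0.09 to 3.05, adjusted p = 0.211), and on the chip that held 2 of them beside 3 healthy livers it was 1.06.

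**Figure D2:**
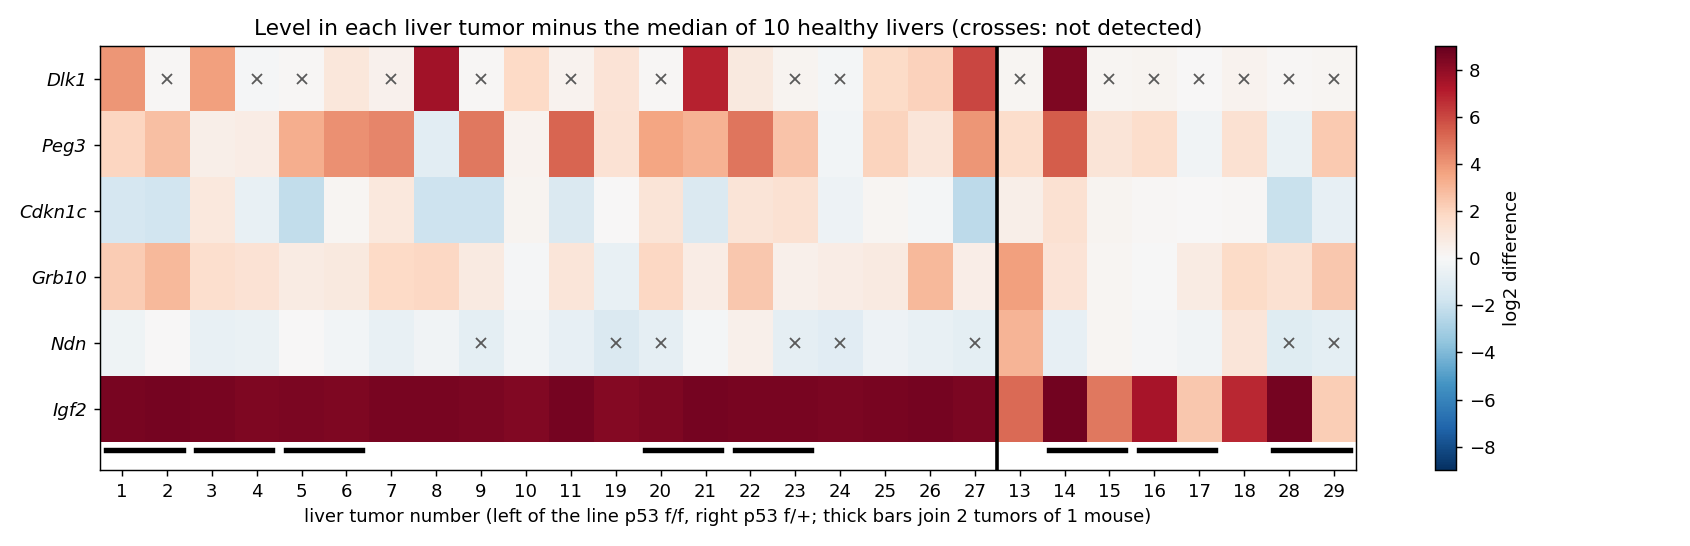
Each column is a liver tumor and each line a gene, coloured by its log2 level minus the healthy liver median, with crosses where it was not detected. The strongest Dlk1 columns (tumors 14, 8, 21 and 27) and the strongest Peg3 columns (tumors 14, 11, 22 and 9) overlapped in tumor 14 alone.

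Grb10, an adaptor that dampens insulin and IGF receptor signalling, was read higher in most tumors than in most healthy livers, but the test turned on a single healthy liver. Healthy liver 1 read 12.44, with a signal of 5020.1, while the others read up to 8.32. This array also had the lowest summed hepatocyte markers of all liver arrays (14.51, next healthy liver 16.38) and the highest bile duct (12.25), stellate cell and fibroblast (14.14) and T cell (9.89) sums of the healthy livers, and their part in its Grb10 level was not tested. The healthy median was 7.04, that of p53 f/f tumors was 8.04 (range 6.4 to 9.97) and that of p53 f/+ tumors was 8.36 (range 7.0 to 10.72). With every array, the log2 difference was 0.75 ± 0.49 for p53 f/f (adjusted p = 0.254) and 0.99 ± 0.61 for p53 f/+ (adjusted p = 0.296), and no tumor exceeded healthy liver 1.

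Without healthy liver 1, Grb10 rose by 1.3 ± 0.38 in p53 f/f tumors (2.46-fold, adjusted p = 0.00644) and by 1.54 ± 0.47 in p53 f/+ tumors (2.91-fold, adjusted p = 0.014). Both comparisons use the same healthy livers. In those fits 19.2% and 13.3% of all genes rose and 18.6% and 11.6% fell (37.8% and 24.9% in all), and 9 of 20 and 4 of 8 tumors then exceeded every healthy liver. A second, weaker Grb10 probe differed by -0.15 ± 0.15 in p53 f/f and by -0.15 ± 0.19 in p53 f/+ tumors (adjusted p = 0.486 and 0.649) with all arrays, where the first probe gave the 0.75 and 0.99 above.

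Cdkn1c, which encodes the cyclin-dependent kinase inhibitor p57Kip2, was detected on all 38 liver arrays and varied in both directions. Healthy livers ran from 7.4 to 9.38 (median 8.43), p53 f/f tumors from 6.07 to 9.79 (median 8.11) and p53 f/+ tumors from 6.41 to 9.77 (median 8.53). Of the p53 f/f tumors, 4 lay above and 8 below the healthy range, and of the p53 f/+ tumors 1 lay above and 1 below. The group differences of -0.36 ± 0.40 (95% interval -1.17 to 0.46) and 0.08 ± 0.5 did not pass (adjusted p = 0.536 and 0.935).

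Ndn, a MAGE family protein also called necdin, was close to background in liver. It was detected in 14 of 20 p53 f/f tumors (4.86 to 6.62, median 5.54), 6 of 8 p53 f/+ tumors (5.08 to 9.24, median 5.93) and 7 of 10 healthy livers (4.8 to 7.96, median 6.17). The differences from healthy liver were -0.54 ± 0.31 for p53 f/f (adjusted p = 0.191) and 0.22 ± 0.39 for p53 f/+ (adjusted p = 0.752). The highest tumor was the dim p53 f/+ tumor 13, which after normalization also had the second highest Grb10 level of all liver arrays (10.72). Deposited Grb10 signals reached at most 513 in p53 f/+ tumors, against 1825.8 in p53 f/f tumors. Tumor 13 had the highest summed stellate cell and fibroblast markers of its group as well (16.24 against a group median of 13.8). Over all 12 of those markers, 4 rose in p53 f/f and 6 in p53 f/+ tumors, and summed levels ran from 12.31 to 14.57 in p53 f/f tumors, from 13.16 to 16.24 in p53 f/+ tumors and from 12.32 to 14.14 in healthy livers, where healthy liver 1 was highest and the next read 13.57. Their part in the Ndn and Grb10 levels was not tested.

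Between p53 f/f and p53 f/+ tumors none of the 5 genes passed the limma test, where 0.434% of all genes did (0.104% higher and 0.33% lower in p53 f/f). Ndn came nearest, at -0.76 ± 0.35 (95% interval -1.47 to -0.06, adjusted p = 0.293). Peg3 differed by 0.87 ± 0.70, Grb10 by -0.24 ± 0.55 and Cdkn1c by -0.44 ± 0.45. In p53 f/+ tumors against healthy liver 7.66% of genes rose and 5.12% fell (12.8% in all), and 0 of the 5 passed. Igf2, the paternally expressed fetal growth factor beside H19, was for comparison 7.98 ± 0.55 higher in p53 f/f and 5.24 ± 0.69 higher in p53 f/+ tumors than in healthy liver (adjusted p = 3.23e-13 and 3.31e-06). All 20 p53 f/f tumors read 15.08 to 15.49 for Igf2, close to the highest log2 value on any liver array (15.77), and the part of a signal ceiling in these sizes was not tested.

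**Figure D3:**
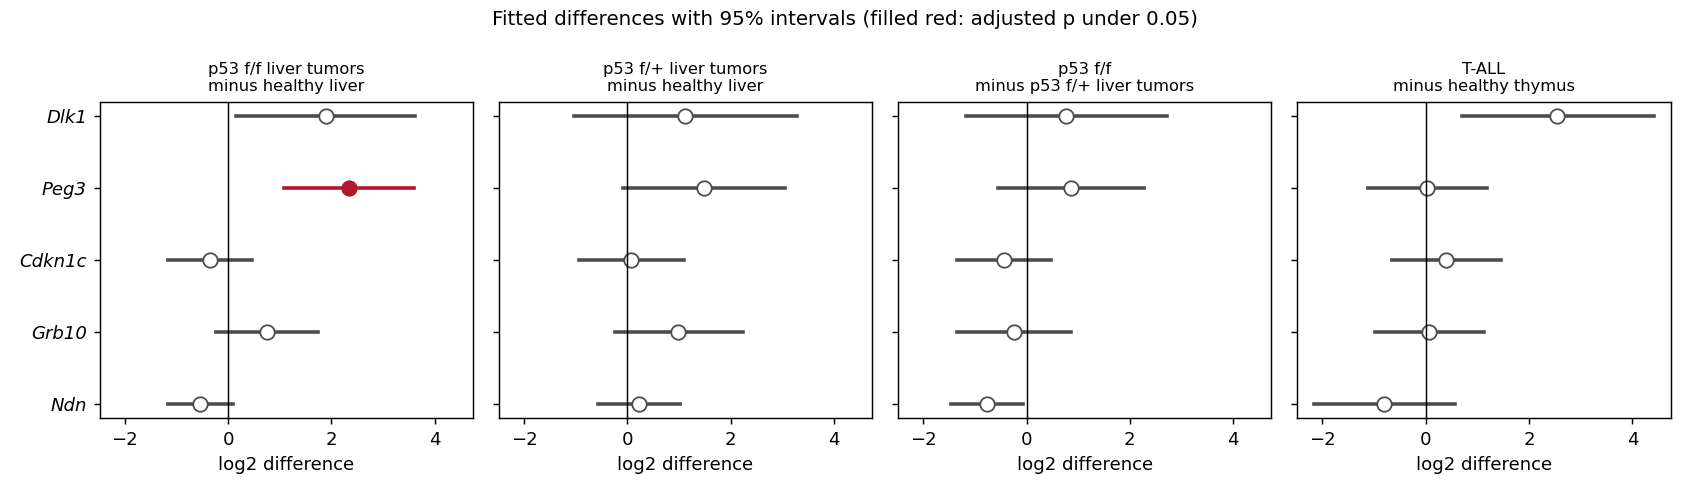
Fitted log2 differences (horizontal axis) with 95% intervals for the 5 tested genes in 4 comparisons, all arrays included. Peg3 in p53 f/f tumors, at 2.34, passed the adjusted threshold of 0.05 and the other points did not.

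Liver tumors of the same mouse could differ widely, above all for Dlk1. In 6 of the 8 mice with 2 tumors Dlk1 was detected in only 1 of the tumors, and in the other 2 mice in neither. The lower tumor of each mouse was thus at background for Dlk1, and the size of a gap within a mouse was not measured. Tumors 14 and 15, both p53 f/+, read 13.16 and 4.94, and p53 f/f tumors 20 and 21 read 4.87 and 11.67. Tumors 1 and 2 (8.72 and 4.86) and tumors 3 and 4 (8.50 and 4.67) showed the same split on a smaller scale.

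Peg3 differed by a median of 1.39 within a mouse (0.18 to 4.3) and Cdkn1c by 1.2 (0.05 to 2.45). For Grb10 the median was 0.9 (0.14 to 1.92) and for Ndn 0.34 (0.09 to 1.24). The mouse with the highest Dlk1 level also had the widest Peg3 gap, with Peg3 at 11.93 in tumor 14 and 7.63 in tumor 15. In tumors 20 and 21, where Dlk1 was detected in tumor 21 alone, Peg3 differed by only 0.41 and Cdkn1c by 2.45, with the higher Cdkn1c in the tumor where Dlk1 was not detected.

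**Figure D4:**
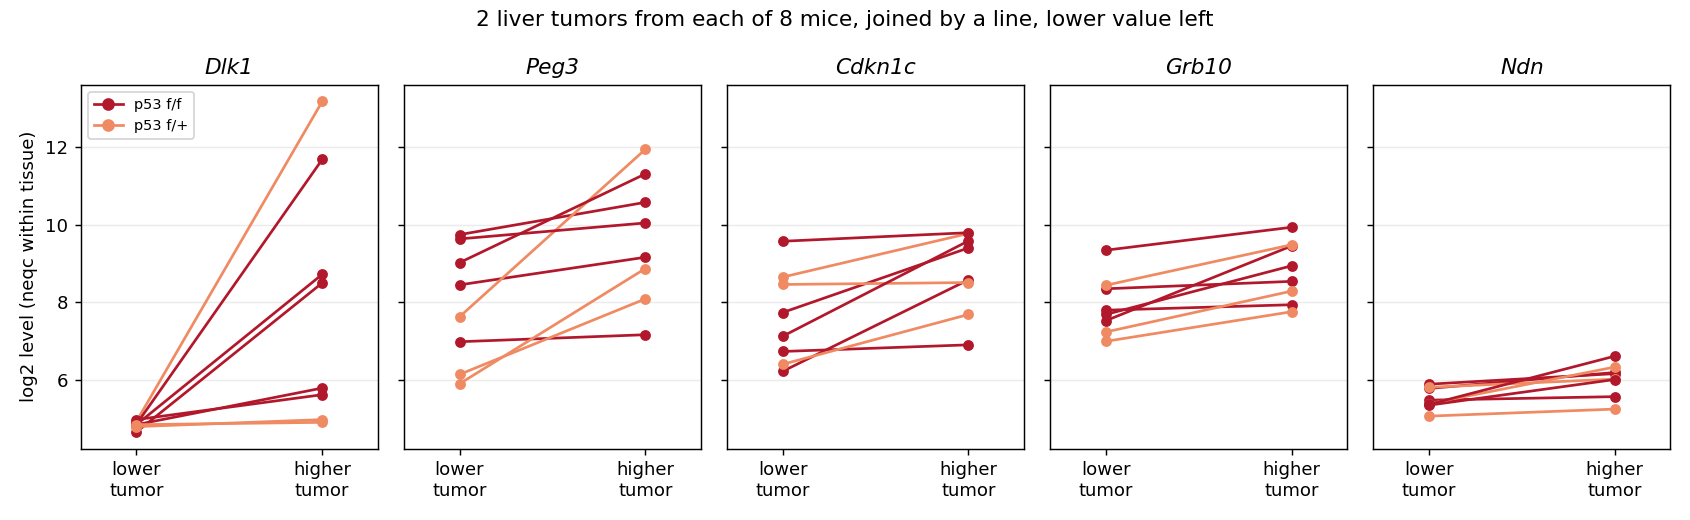
Log2 level (vertical axis) in both liver tumors of 8 mice, joined by a line with the lower value on the left, for the 5 tested genes. For Dlk1 every lower tumor lies near 5, and 4 lines end above 8.

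The genes were also compared with each other across mice. Over 15 p53 f/f mice, tumors of a mouse averaged, Dlk1 and Peg3 gave a Pearson r of -0.322 and Dlk1 and Cdkn1c of -0.464, as a description of values from shared arrays. Dlk1 and Meg3 gave r = -0.52 (permutation p = 0.048) and Spearman's rho = -0.26 (permutation p = 0.353), 2-sided, the only relation computed in its family, so that adjustment leaves these p-values as they are. Without the 2 mice farthest from the median Dlk1 level r was -0.04, so the relation rested on them, and Meg3 was detected in none of these tumors.

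Among 10663 genes, those whose pattern over the same 15 mice was most like each gene are given with r, and with r after leaving out the 2 mice farthest from that gene's median. For Dlk1 they were Vegfc (0.826, then 0.729), Fam102b (0.796, then 0.398) and Gskip (0.777, then 0.559). For Peg3 they were Psmd4 (0.88, then 0.886), Ikbip (0.87, then 0.95) and Tuft1 (0.85, then 0.826). Cdkn1c was nearest to Npr3 (0.772, then 0.76), Arv1 (0.767, then 0.671) and Pdp2 (0.765, then 0.823). Ndn was nearest to Hey1 (0.784, then 0.653), Flcn (0.765, then 0.674) and Kit (0.752, then 0.7). Grb10 was nearest to Igf2 (0.802, then 0.607), Allc (0.785, then 0.514) and Usp4 (0.783, then 0.705). Igf2, however, spanned only 15.08 to 15.49 in these tumors, near the highest value of any liver array (15.77), so its r says little about co-variation. These values describe 15 mice measured on shared arrays and carry no test.

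In the thymic tissues Dlk1 again had the widest spread of the 5 tested genes, but here the healthy tissue expressed it at a low, even level. The 5 thymuses read 6.94, 6.72, 6.86, 6.86 and 6.69, all detected. T-ALLs 1 to 9 read 7.98, 9.99, 8.52, 11.81, 5.08, 12.13, 9.17, 10.45 and 9.19. All T-ALLs but the nearly blank T-ALL 5, where Dlk1 was not detected, lay above every thymus.

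With all arrays Dlk1 was 2.55 ± 0.88 higher in T-ALL on the log2 scale, or 5.87-fold (95% interval 0.7 to 4.41), and missed the threshold (adjusted p = 0.0805). Without T-ALL 5 it rose by 3.31 ± 0.64 (9.93-fold, adjusted p = 0.00115), and without T-ALLs 4 and 5 by 3.11 ± 0.59 (8.61-fold, adjusted p = 0.000715). With all arrays 1.41% of all genes rose and 8.83% fell (10.2% in all). Without T-ALL 5, 10.8% rose and 18.9% fell (29.7%), and without both 20.5% rose and 25.8% fell (46.3%). All T-ALLs lay above all thymuses for 5.39% of genes, and below for 12.9%, once T-ALL 5 was left out. The second Dlk1 probe rose with every array kept (3.0 ± 0.61, adjusted p = 0.00343). All thymuses shared a chip that held no T-ALL, so chip and group cannot be told apart.

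**Figure D5:**
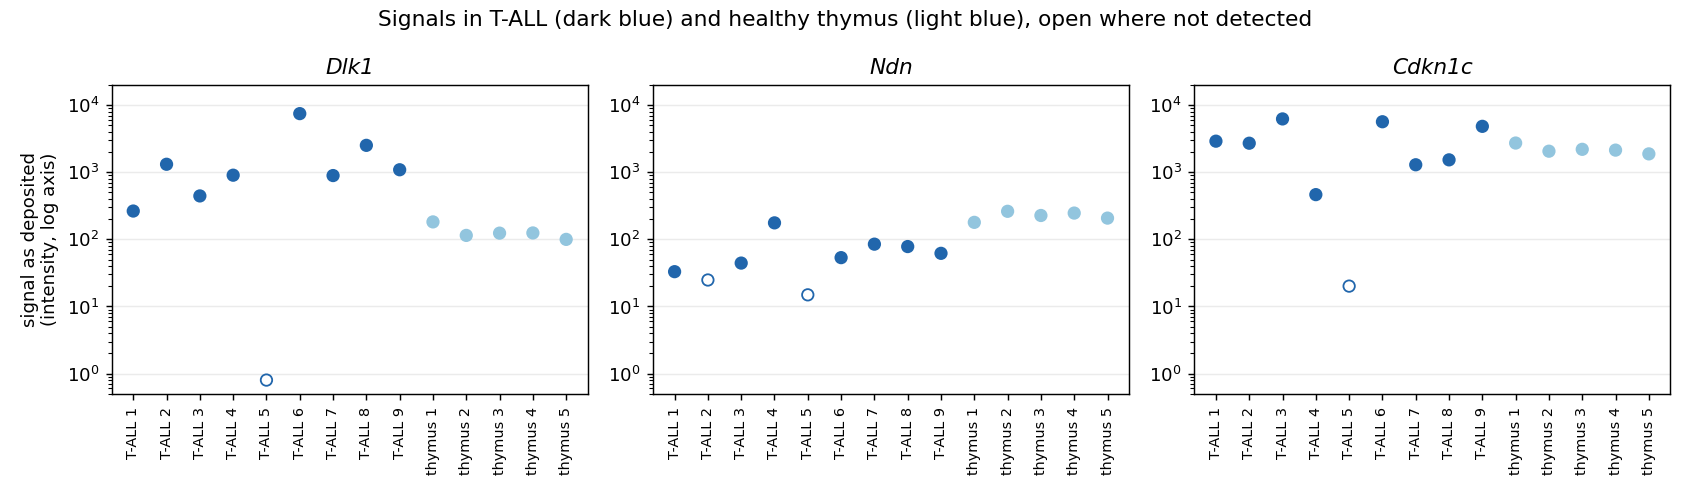
Signal as deposited (vertical axis, log scale) of Dlk1, Cdkn1c and Ndn on the T-ALL and thymus arrays, 1 point an array, open where not detected. Dlk1 lies above the thymuses in 8 of 9 T-ALLs and Cdkn1c lies on both sides of them. Ndn lies below them in every T-ALL, at up to 176.1 against 179.2 or more. These signals are not corrected for array brightness, which was low for T-ALLs 4 and 5. On the normalized scale used in the text, Ndn in T-ALLs 4 and 5 lies above the thymuses instead.

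Ndn read 6.92, 7.71, 7.56, 7.66 and 7.56 in the thymuses. In T-ALLs 1 to 9 it read 5.64, 5.41, 5.81, 9.63, 8.97, 6.10, 6.40, 6.29 and 5.87, not detected in the second and the fifth. After normalization the groups overlapped only through T-ALLs 4 and 5. Before it they did not overlap, with deposited signals of 14.9 to 176.1 in T-ALLs and 179.2 to 261.8 in thymuses. Deposited signals are not corrected for array brightness. The 95th percentile of all signals was 300 on T-ALL 4 and 20.2 on T-ALL 5, against 1880 to 2520 on thymuses. For these 2 arrays a low deposited Ndn signal and a dim array cannot be told apart. The log2 difference was -0.80 ± 0.64 with all arrays (adjusted p = 0.532) and -1.17 ± 0.60 without T-ALL 5 (adjusted p = 0.157). Without both it fell by 1.74 ± 0.24, 3.35-fold lower, with all 7 T-ALLs under all thymuses (adjusted p = 3.91e-05), where 25.8% of all genes fell and 16.9% had all T-ALLs below (11% above). The dim T-ALL 4 was the only T-ALL in which Ndn was both detected and, after normalization, high. It also had the highest summed stellate cell and fibroblast markers (15.34 against a T-ALL median of 12.57). Their part in its Ndn level, and that of the normalization, was not tested.

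Markers of thymic epithelium moved with the same comparison. Of 8 tested, 6 fell in T-ALL, and their summed level was 8.32 to 11.62 in T-ALLs and 13.53 to 13.7 in thymuses. Of 5 neutrophil markers 4 fell as well. Their part in the thymic Dlk1 and Ndn levels was not tested.

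Cdkn1c was high in both thymic tissues. Thymuses read 10.51, 10.43, 10.5, 10.47 and 10.39, and T-ALLs 1 to 9 read 11.10, 10.92, 11.99, 10.99, 10.37, 11.75, 9.63, 9.81 and 11.15. T-ALLs 7 and 8, and the undetected T-ALL 5, lay below the thymuses and the other 6 above, and the difference of 0.40 ± 0.50 did not pass (adjusted p = 0.706). Grb10 read 7.63 to 7.97 in thymuses and 6.74 to 9.91 in T-ALLs (difference 0.07 ± 0.50, adjusted p = 0.956). Peg3 read 5.45 to 6.52 in thymuses and was detected in 6 of 9 T-ALLs at up to 9.26, in T-ALL 4 (difference 0.03 ± 0.54, adjusted p = 0.982).

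The tumor effect was compared between the tissues as T-ALL minus thymus against p53 f/f tumor minus healthy liver, over all 52 arrays normalized together, where 18.8% of all genes passed (5.33% higher and 13.5% lower). Of the 5 genes 0 passed. Peg3 came nearest, with a difference of effects of -2.21 ± 1.03 (95% interval -4.28 to -0.14, adjusted p = 0.127), and Dlk1 gave 0.85 ± 1.55 (adjusted p = 0.739). Healthy liver and thymus differed in Cdkn1c, which was 4.94-fold lower in liver (log2 difference -2.31 ± 0.55, adjusted p = 0.000381). Ndn was 2.38-fold lower there (-1.25 ± 0.51, adjusted p = 0.0395). Of all genes 28.3% were lower and 20.1% higher in liver (48.4% in all). The Ndn call was lost without healthy liver 1 and without any of thymuses 2 to 5, with adjusted p values of up to 0.0796. Dlk1 (-1.95 ± 1.24), Grb10 and Peg3 did not pass.

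Over the 5 groups, on the common scale, mean Dlk1 was highest in T-ALL (9.50 ± 2.27 SD, n = 9), then thymus (6.74 ± 0.11, n = 5), p53 f/f tumors (6.66 ± 2.4, n = 20), p53 f/+ tumors (5.94 ± 2.85, n = 8) and healthy liver (4.80 ± 0.12, n = 10). In this order thymus, p53 f/f and p53 f/+ tumors lay within their spread of each other. Cdkn1c ran from T-ALL (11.08 ± 0.92) and thymus (10.61 ± 0.05) down to p53 f/+ tumors (8.37 ± 0.97), healthy liver (8.31 ± 0.7) and p53 f/f tumors (7.97 ± 1.21), with the 3 liver groups within their spread. Ndn was highest in thymus (7.44 ± 0.34), and the other groups, from 5.67 to 6.64, lay within their spread. Peg3 was highest in p53 f/f (8.92 ± 1.79) and p53 f/+ tumors (8.05 ± 1.81), followed by healthy liver (6.60 ± 0.91), T-ALL (6.10 ± 1.3) and thymus (6.04 ± 0.41), with neighbours in that order within their spread. Grb10 means lay between 7.53 and 8.46 in all groups, within their spread.

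The other imprinted genes of the array were followed as a list of 58, of which 51 had a probe. In p53 f/f tumors 30 were tested, 4 rose and 4 fell, close to the 14.9% and 14.2% of all genes, with a median log2 difference of -0.04 against -0.006 over all genes. The median of the 5 genes above, 0.75, was the value of Grb10, whose second probe gave -0.15. Dlk1 counts among the 5 though it entered the liver fits through tumors alone, so this median is not set against that of the list. Besides Igf2 the risers were led by Phlda2, a maternally expressed brake on placental growth from the domain of Cdkn1c (3.54, adjusted p = 8.41e-07), and H13, a signal peptide peptidase (0.92, adjusted p = 0.0136). The fallers were led by Snurf, which shares a transcript with Snrpn (-1.87, adjusted p = 0.0345), Copg2, a neighbour of Mest (-0.63, adjusted p = 0.0298), and Mkrn3, which lies near Ndn (-0.53, adjusted p = 0.0193). Mkrn3 was detected in 4 of 20 p53 f/f tumors and 4 of 10 healthy livers (medians 4.99 and 5.51), so its fall lay between values near background. Phlda2 read 4.75 to 6.84 in healthy livers and 5.71 to 10.7 in p53 f/f tumors (median 9.66), so the groups overlapped, and it was detected in 5 of 10 healthy livers.

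In p53 f/+ tumors 2 of 30 rose, Igf2 and Phlda2 (4.04, adjusted p = 2.99e-05), and 0 fell, against 7.66% and 5.12% of all genes, with a list median of 0.01 against -0.023 over all genes. The median of the 5 genes above, 0.99, was again the value of Grb10, with Dlk1 among the 5, and is under the same limit. Between the tumor groups Igf2 alone passed, 2.74 ± 0.62 higher in p53 f/f tumors (adjusted p = 0.0324). In T-ALL 25 were tested, of which Ddc, a neighbour of Grb10 that encodes dopa decarboxylase, rose by 2.68 (adjusted p = 0.011) and Cobl, an actin nucleator, fell by 1.44 (adjusted p = 0.00407) and was detected in 1 of 9 T-ALLs, against 1.41% and 8.83% of all genes. The T-ALL list median was -0.46 against -0.295 over all genes and 0.07 for the 5 genes above. Healthy liver exceeded thymus in 11 of 32 listed genes, led by Slc22a18 (4.88), Ddc (4.76) and Snurf (4.19), and lay below it in 5, among them Tspan32 (-5.19), Atp10a (-4.38) and Kcnq1ot1 (-2.22). Of the healthy livers 2 of 10 detected Tspan32, 1 of 10 Atp10a and 4 of 10 Kcnq1ot1, and 1 of 5 thymuses detected Snurf, so the sizes of these differences are set against values largely at background.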

How the data were processed

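RNA of whole tumors and healthy tissues was hybridised to Illumina mouse bead arrays. The authors deposited, per array, probe intensity (average bead signal, with background already subtracted, since values fall below 0; the software is not given in the sources used here) and a detection score as a fraction from 0 to 1, which rises with signal and was taken as 1 minus the detection p. The submitters' processing notes name limma. The deposited value table holds the authors' log2 values, quantile normalized within each tissue, which were used for tumor 12 and as an alternative. Intensities were normalized with neqc (limma 3.58.1, R 4.3.3, offset 16) within liver (38 arrays) and thymus (14 arrays), and jointly for comparisons across tissues. Genes read above background (detection p under 0.05) by 5 or more arrays of a tissue were tested with lmFit and eBayes, with the mouse as a random block (correlation 0.185 in liver, 0.496 jointly), and p-values were adjusted over all tested genes by Benjamini-Hochberg, with calls under 0.05. The annotation named a single gene for 34885 of 45281 probes and more than 1 for 18, and 10378 were absent from it. 1 array with no sample label was not used. Genes named beside the members were up to 3 called each way in the list of other imprinted genes, and the 3 most alike over mice. The members and lists were chosen with earlier results of these data known. Marker sums add intensities over a list. Alternatives were the authors' values, median scaling, offset 50, no detection filter, chip as a fixed or random term, Xist detection as a covariate, the probe with the highest normalized level, no mouse block, tumors averaged per mouse, a replicate block, and arrays or mice left out in turn. The fits were tested on simulated data. Sample number, with signal over background, limits the precision.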

Additional observations from a re-analysis of the deposited data

Results flagged for a closer look

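Among 36 sets of values (a gene in a group of 4 to 10 samples), 12 held a sample whose gap to the nearest other sample was large for the range of its group. Chance would give about 1 in 20 such sets if the sets were independent and their values normally distributed. Here the sets share arrays and several lie at background, so that rate does not show an excess. In p53 f/+ tumors these were Dlk1 in tumor 14 (13.16), Meg3 in tumor 14 (6.0, next 5.14) and Plagl1 in the dim tumor 13 (6.06, next 5.24). In healthy livers they were Grb10 in liver 1 (12.44, next 8.32), Igf2 in liver 1 (11.47, next 8.11) and Peg3 in liver 5 (8.81, next 6.93). In T-ALLs they were Peg3 in the dim T-ALL 4 (9.26, next 7.04), Igf2 in T-ALL 6 (9.82, next 7.74), and Mest (11.81, next 5.12) and the undetected Plagl1 (9.44, next 5.61) on the nearly blank T-ALL 5. In thymuses they were Ndn in thymus 1 (6.92, next 7.56) and the undetected Mest in thymus 5 (5.21, next 4.76).

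Tumor 14 was set apart for both Dlk1 and Meg3, which share an imprinted domain, and it was the 1 array on which Meg3 was detected. Its partner from the same mouse, tumor 15, read 4.94 and 4.95 for these genes.

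Igf2 differed between groups of tumors under the same contrast. Its rise over healthy liver was 2.74 larger in p53 f/f than in p53 f/+ tumors (limma, adjusted p = 0.0324), and the T-ALL effect lay below the p53 f/f liver tumor effect by 8.53 on the log2 scale (-8.53, adjusted p = 4.33e-09). Igf2 in p53 f/f tumors lay at 15.08 to 15.49, near the highest value of any liver array (15.77). The part of a signal ceiling in both sizes was not tested.

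Tumor 12, for which only the authors' normalized log2 values were used, read 8.18 for Mest, against at most 8.05 in healthy livers, and 9.27 for Ndn, against at most 8.7 in healthy livers and 8.25 in the other p53 f/f tumors. On that scale empty probes lie near 8. Its Grb10 (10.66) exceeded the other p53 f/f tumors (at most 9.96) but lay within the healthy livers (8.03 to 12.23), and its Dlk1 (7.94) lay in the healthy range.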

How the results depend on the processing

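With p53 f/f tumors against healthy liver, 1 of the 5 genes passed (Peg3). With median scaling in place of quantile normalization 2 did (Grb10 1.28, adjusted p = 0.0385), with tumors averaged per mouse 2 did (Dlk1), and with chip as a fixed effect 0 did. Leaving out each healthy liver or tumor-bearing mouse in turn (30 fits) gave 1 to 2 in this comparison, 0 to 1 for p53 f/+ tumors (Grb10, without healthy liver 1) and 0 to 0 between the tumor groups. Leaving out each T-ALL or thymus (14 fits) gave 0 to 1 in T-ALL (Dlk1, without T-ALL 5). Leaving out healthy liver 1, T-ALL 5 or a thymus (7 fits) gave 1 to 2 for healthy liver against thymus. That last count was 1 without the detection filter and 1 with offset 50 (Ndn lost). In T-ALL 2 passed with median scaling (Dlk1 2.5, adjusted p = 0.00818, Ndn -1.69, adjusted p = 0.00135) and 2 without T-ALLs 4 and 5. Between tissues 3 passed with median scaling (Peg3 -3.16, Grb10 -2.03, Ndn -1.53) against 0. Median scaling moved the median of all genes, to 0.31 for p53 f/f tumors (89.7% of calls higher against 51.2%), 0.3 between tumor groups (92.4% against 24%), -0.65 in T-ALL, -0.86 between tissue effects (7.29% against 28.3%) and -0.52 for liver against thymus (26.4% against 41.6%), while p53 f/+ tumors stayed at 0.02 (76.9% against 59.9%). All genes called in T-ALL numbered 1052, 3043 without T-ALL 5 and 4689 without T-ALLs 4 and 5. Signs turned only for differences that did not pass. With median scaling these were Cdkn1c (-0.58 between tissues, -0.43 in T-ALL, 0.17 in p53 f/f, 0 between tumor groups), Grb10 (-0.77 in T-ALL, 0.19 between tumor groups) and Peg3 (-0.33 in T-ALL, -0.04 for liver against thymus). Without T-ALLs 4 and 5 they were Grb10 (-0.51) and Peg3 (-0.39). With chip as a fixed effect they were Grb10 (-1.2 in p53 f/f, -0.45 in p53 f/+), Cdkn1c (-0.54) and Ndn (-0.14). In the same leave-outs Grb10 ranged from -0.2 to 0.21 and Peg3 from -0.38 to 0.15 in T-ALL, Cdkn1c from -0.18 to 0.5 and Ndn from -0.25 to 0.61 in p53 f/+, and Grb10 from -0.6 to 0.12 between tumor groups. The correlation of Dlk1 with Meg3 was -0.5 in the authors' values (permutation p = 0.0622). Replicate numbers did not pair the samples (correlations of -0.08 to 0.16), and with a replicate block Peg3 was 2.08 in p53 f/f tumors (adjusted p = 0.0225) and Dlk1 1.86 in T-ALL (adjusted p = 0.277). In the authors' values Peg3 was 1.16 in p53 f/f tumors (adjusted p = 0.0168), Dlk1 1.75 in T-ALL (adjusted p = 0.0648, with T-ALL 7 in doubt there, since its signals and the authors' values gave a rank correlation of 0.786) and Igf2 2.55 between tumor groups (adjusted p = 0.248). Peg3 in p53 f/f tumors kept its call in 30 of 30 fits without an animal and in 10 of 11 other settings, and Igf2 between tumor groups in 25 of 30 and 7 of 10. For liver against thymus and between tissues, leaving out each thymus or T-ALL 5, and in all comparisons a fit of each probe, were chosen after seeing the data. The causes were not tested. Relations with H19 were not run for want of a probe, nor was a within-chip value for p53 f/f tumors, since tumor 12 had no signals.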
